A study of Rattus norvegicus with 20 samples.

Results

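Mammary cancers of rats that ate a high-fat diet were set against mammary cancers of rats that ate a low-fat diet. All arrays of cancers were taken: 9 cancers from rats on 45 kcal% fat, against 3 cancers from lean control (LC) rats on 10 kcal% fat, together 12 of the 20 arrays of the series. The high-fat group joined 6 cancers of obesity-prone (OP) rats and 3 cancers of obesity-resistant (OR) rats, a division the study had made by body weight at 7 weeks of age. Every rat, the lean controls included, was a female Sprague-Dawley (Jcl:SD) rat that had received 4 Gy of gamma rays to the whole body at 7 weeks of age and was followed for 30 weeks on its diet. Cancers of both diet groups thus arose in irradiated animals, and none came from an unirradiated rat. Only adenocarcinomas of uniform histology without necrosis or marked infiltration had been picked for the arrays. The other 8 arrays held normal mammary tissue, 5 of high-fat rats (3 OP and 2 OR) and 3 of LC rats. The labels do not say that each tissue came from a separate rat, and every p-value here then measures only how far these samples spread.

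Dietary fat reaches mammary epithelium as fatty acids taken up from blood or released by neighbouring fat cells, and it also acts at a distance through insulin, leptin and adiponectin. Tumour cells can burn fatty acids in mitochondria, make their own through fatty acid synthase, and make cholesterol through a pathway that is switched on when sterols in the cell are scarce. Rat mammary carcinomas are often hormone-dependent and keep part of the milk-producing programme of the luminal cell. The lists below follow these functions and add markers of the other cell types a piece of tumour can hold.

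The mean share of probes well above background was similar for both diets, but it varied with rat group and slide. On average 68.6% ± 7.46 of the probes were well above background in high-fat cancers (SD, n = 9), against 68.0% ± 4.09 in LC cancers (n = 3), and the two-sided exact permutation test of the difference gave p = 0.945. The range was 61.3% to 79.3% in high-fat cancers and 63.3% to 70.8% in LC cancers. OP cancers averaged 65.6% and OR cancers 74.8%. Luminal keratins, cadherin and claudins were bright in every group, with a mean log2 level over 8 markers of 13.32 to 14.28 in high-fat cancers and 13.85 to 14.15 in LC cancers. Fat cell markers were dim, at 7.41 to 8.02 in high-fat cancers and 7.23 to 7.57 in LC cancers over the 7 of 8 markers on the array, and 2 of the 7 were well above background on no high-fat cancer, as were 2 of the 7 on no LC cancer. Of the 5 slides, slide 1 (OP cancer 1 and LC cancer 1) and slide 5 (OR cancers 2 and 3, LC cancers 2 and 3) held both diets. The other high-fat cancers lay on slides without an LC cancer. On slide 5 the share well above background was 78.4% and 71.3% in OR cancers 2 and 3, against 70% and 63.3% in LC cancers 2 and 3. On slide 1 it was 67.3% in OP cancer 1, against 70.8% in LC cancer 1. OP cancer 6 stood apart on the first principal component of the 12 cancers, at 66.3 on an axis where the other cancers lay between -27.1 and 35.9.

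No gene differed between the cancers of the 2 diets beyond the spread among tumours. With limma, 0 of the 29862 tested genes had an adjusted p under 0.05, a background of 0% for the cancers, and the smallest adjusted p was 0.988. At an unadjusted p under 0.05, 705 genes were higher on the high-fat diet (2.36% of those tested) and 556 were lower (1.86%), together 1261 or 4.22%. The median gene differed by 0.0024 on the log2 scale, and 50.8% of genes had a difference above 0. At the median standard error of 0.132, the 95% interval of a gene reached 0.287 to either side of its log2 difference. A difference of more than 2-fold was seen for 128 genes, and 40 of these had an unadjusted p under 0.05, 16 higher and 24 lower. The scaling changed the split: 77.2% of the genes under an unadjusted p of 0.05 were higher with the scanner's processed signal at the 75th percentile, and 32.8% with normexp at the 75th percentile, against 55.9% after quantile normalization. That normexp scaling lowered the median gene by 0.18.

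**Figure D1:**
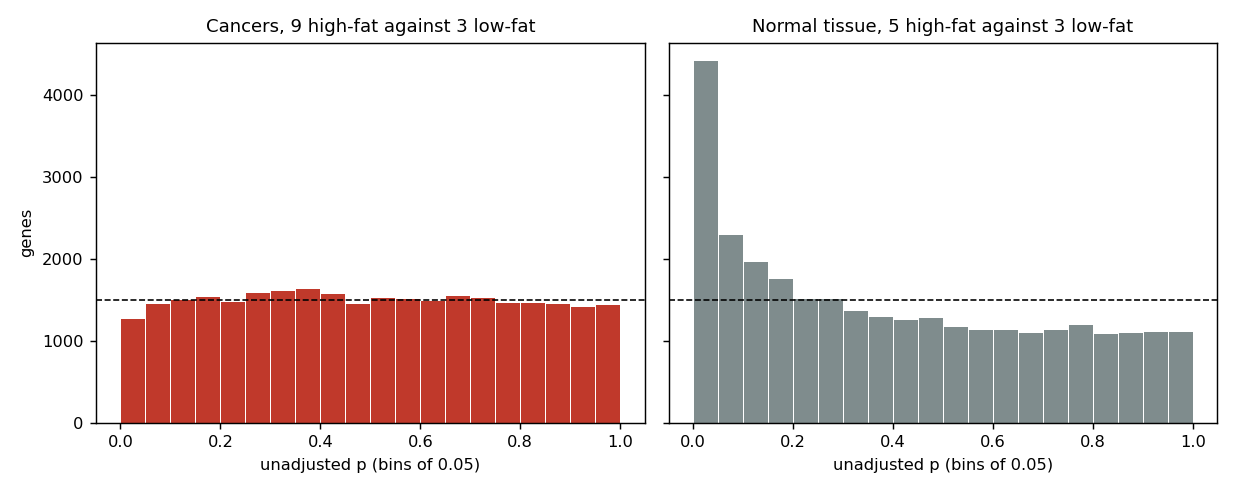
Histograms of the unadjusted limma p-values of 29862 genes in bins of 0.05, for the diet difference in cancers (left, 9 high-fat against 3 low-fat) and in normal tissue (right, 5 against 3). The dashed line is the height of a flat distribution. The lowest bin holds 1261 genes in cancers and 4413 in normal tissue.

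Among genes with a symbol, the 12 with the smallest p in the higher direction are described first, and none passed the adjusted test. In 11 of the 12, every high-fat cancer lay above every LC cancer. Over all genes tested, 225 showed this (0.753%), and since the 12 were chosen by their p, their count says nothing further. The differences were modest, 1.20-fold to 1.79-fold. Cast encodes calpastatin, the inhibitor of the calpain proteases. Its log2 level had a lowest, median and highest value of 9.81, 9.98 and 10.33 in high-fat cancers, against 9.55, 9.54 and 9.48 in LC cancers 1, 2 and 3. The groups did not overlap, and the difference was 0.49 (95% interval 0.27 to 0.72, unadjusted p = 0.000482).

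Abcc1, an efflux pump known for multidrug resistance, had 11.32, 11.44 and 11.85 as lowest, median and highest log2 level in high-fat cancers, against 10.74, 11.04 and 11.09 in the LC cancers. It differed by 0.58 (SE 0.127). Uqcrh, a small subunit of respiratory complex III, had 14.81, 15.14 and 15.31 in high-fat cancers, against 14.45, 14.70 and 14.45 in LC cancers, a difference of 0.55 (SE 0.123). Neither gene had a sample that crossed between the groups.

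Eloa encodes elongin A, a factor of RNA polymerase II elongation, and had 10.30, 10.68 and 11.22 in high-fat cancers, against 9.75, 9.93 and 9.93 in LC cancers (difference 0.81, interval 0.41 to 1.21). Usp7, a deubiquitinase that acts on the p53 pathway, had 10.52, 10.90 and 11.43 in high-fat cancers, against 10.13, 10.32 and 10.14 in LC cancers (0.70). Shoc2, a scaffold of RAS to ERK signalling, had 9.72, 10.17 and 10.44 in high-fat cancers, against 9.34, 9.5 and 9.33 in LC cancers (0.71). For all these the mean of the OP cancers was above that of the OR cancers, and both means were above the LC mean. Eloa averaged 10.82 in OP and 10.39 in OR cancers, against 9.87 in LC cancers.

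Pip4k2a, a lipid kinase that uses phosphatidylinositol phosphate, showed the largest difference of the 12, 0.84 (interval 0.39 to 1.29). Its levels were 8.99, 9.28 and 10.00 in high-fat cancers, against 8.42, 8.41 and 8.88 in LC cancers, so LC cancer 3 came close to the lowest high-fat cancer. Acp2, the lysosomal acid phosphatase, differed by 0.72 and was the exception to the separation, because OR cancer 1 at 11.41 lay below LC cancer 1 at 11.51. Dnm1l, the dynamin-related protein that divides mitochondria, differed by 0.65. Pgap2, which remodels GPI anchors, differed by 0.54, Pdap1, a PDGF-binding phosphoprotein, by 0.69, and Alg13l1 by 0.26. Of the 24 genes named in both directions, 8 had several probes that passed the filter. For 3 of them, Eloa, Alg13l1 and Dnm1l, at least 1 probe differed in the opposite direction, so their values rest on the brightest probe alone. For 3 more the other probes differed less in the same direction: Cast by 0.073 and 0.25, Usp7 by 0.074 and Pip4k2a by 0.17.

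The 12 genes with the smallest p in the lower direction included larger differences, and none passed the adjusted test. In 4 of them every high-fat cancer lay below every LC cancer, against 112 of all genes tested (0.375%). Gal encodes galanin, a neuropeptide that also acts on the pituitary and on the mammary gland. Its log2 level had a lowest, median and highest value of 6.96, 7.40 and 8.38 in high-fat cancers, against 9.53, 9.66 and 8.11 in LC cancers 1, 2 and 3. OP cancer 2, the highest of the high-fat cancers, lay above LC cancer 3, and the other 8 high-fat cancers lay below all LC cancers. The difference was -1.62, or 3.08-fold (interval -2.37 to -0.88, unadjusted p = 0.000433). Within slide 1 it was -2.29 and within slide 5 it was -1.64.

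Gdf10, a secreted factor of the bone morphogenetic protein family, had 8.93, 9.81 and 10.98 in high-fat cancers, against 10.84, 11.79 and 12.56 in LC cancers. It averaged 10.11 in OP cancers and 9.32 in OR cancers, against 11.73 in LC cancers. The difference was -1.89, or 3.70-fold (interval -2.91 to -0.86), and OP cancer 4 overlapped LC cancer 1. A2m, a plasma protein that traps proteases and growth factors and whose gene responds to acute inflammation in rats, had 9.65, 10.45 and 11.13 in high-fat cancers, against 11.58, 11.52 and 11.45 in LC cancers. Its groups did not overlap, its LC cancers lay close together, and it differed by -1.15 (interval -1.84 to -0.46).

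Eln, elastin, had 6.77, 7.37 and 7.76 in high-fat cancers, against 7.83, 7.95 and 7.96 in LC cancers, with no overlap and a difference of -0.60 (SE 0.169). Hapln1, which links hyaluronan to proteoglycans, differed by -0.44 at a level near the background, since 3 of the 12 cancers had it well above background. Reep2, a protein that shapes the endoplasmic reticulum, differed by -0.85 and Slc17a8, a vesicular glutamate transporter, by -0.70 (-0.41 without LC cancer 1). Stk25, a kinase linked to lipid droplets and the Golgi, had 9.0, 9.48 and 9.74 in high-fat cancers, against 10.10, 9.85 and 9.96 in LC cancers, a difference of -0.53 without overlap. Mmd differed by -0.35 with no overlap, and was well above background on 5 of the 12 cancers. Mark1, a kinase of microtubule-associated proteins, differed by -0.67 (-0.42 without LC cancer 3), Polr2m, which binds RNA polymerase II, by -0.31, and Spp2 by -0.53. For all 24 genes in both directions, the OP mean and the OR mean lay on the same side of the LC mean. The genes were chosen by the p of the joined high-fat group, and both means were set against the same LC cancers. This count thus says nothing further.

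**Figure D2:**
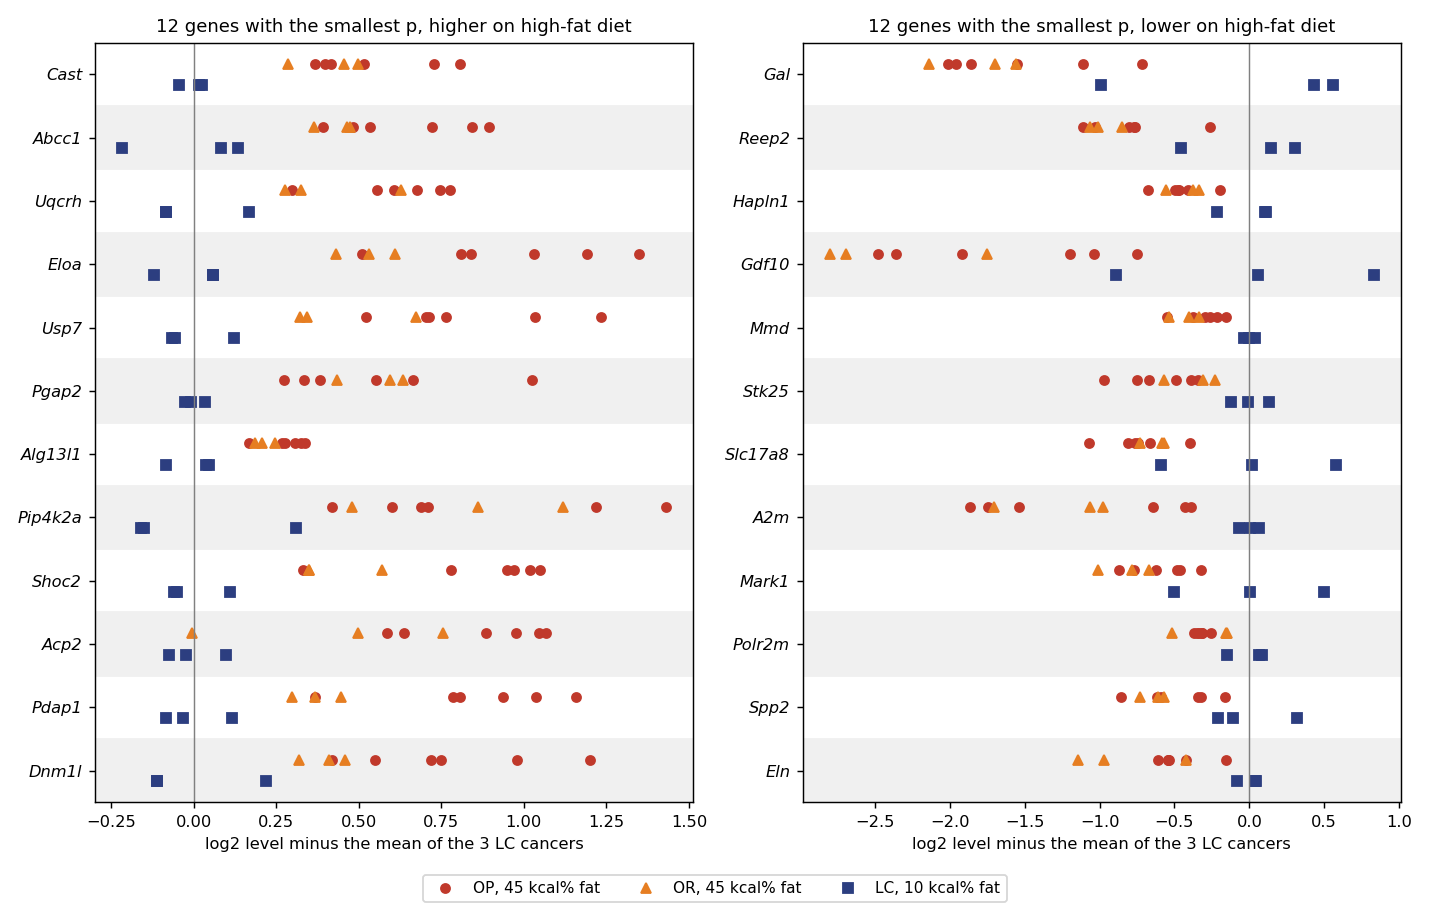
Log2 level of the 12 genes with the smallest p in each direction, minus the mean of the 3 LC cancers, one point per cancer. For each gene the upper line of points holds the 6 OP (circles) and 3 OR (triangles) cancers, and the lower line the 3 LC cancers (squares). In 11 of the 12 genes on the left and 4 of the 12 on the right the 2 diets do not overlap.

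Genes of cholesterol synthesis and its regulators leaned to the high-fat side without passing the test. Of 25 tested members, 22 had a difference above 0, beside 50.8% of all genes. None passed, and the median was 0.20, beside 0.0024 over all genes. At an unadjusted p under 0.05, 3 members were higher and 0 lower, beside 2.36% and 1.86% of all genes. Cyp51, which demethylates lanosterol, had 8.91, 9.33 and 9.97 as lowest, median and highest level in high-fat cancers, against 8.96, 8.83 and 8.97 in LC cancers (0.46, unadjusted p = 0.0309). OP cancer 3 was the only high-fat cancer within the LC range. Dhcr7, the last reductase of the pathway, had 10.88, 11.10 and 11.89 in high-fat cancers, against 11.15, 10.67 and 10.44 in LC cancers (0.55, unadjusted p = 0.0403), and LC cancer 1 lay inside the high-fat range. Insig1, which holds back the sterol sensor, differed by 0.55 (unadjusted p = 0.0401), and its other probes by 0.37, 0.21 and 0.041. Within slide 1 Insig1 differed by 0.04 and within slide 5 by 1.14. The mean level of the list was 9.36 to 10.07 in high-fat cancers, against 9.69, 9.45 and 9.61 in LC cancers, so the groups overlapped. The list median was 0.04 within slide 1 and 0.46 within slide 5, and 0.12 without LC cancer 2. With both 75th-percentile scalings it stayed above 0, at 0.27 (processed signal) and 0.23 (normexp), beside 0.054 and -0.18 over all genes.

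Fatty acid synthesis had a median near 0. Of its 22 tested members, 5 had a difference above 0, and the median was -0.045. Fasn, the fatty acid synthase, ranged from 13.60 to 16.20 among high-fat cancers with a median of 14.66, against 15.03, 14.44 and 14.76 in LC cancers, and differed by -0.014 (interval -1.05 to 1.02). Its spread among high-fat tumours thus spanned the LC values on both sides. Scd, the desaturase that makes oleate, had 8.28 to 9.55 in high-fat cancers, against 10.92, 8.44 and 8.5 in LC cancers. The difference of -0.38 (SE 0.469) turned to 0.44 without LC cancer 1. Elovl6, which lengthens palmitate, was the member with the smallest p (0.0361): it had 9.35, 10.18 and 11.90 in high-fat cancers, against 9.45, 9.44 and 9.31 in LC cancers, a difference of 0.99 (interval 0.076 to 1.91). OP cancer 3 alone lay within the LC range. Its other probe differed by 0.68, and Elovl6 differed by 2.45 within slide 1 and 1.0 within slide 5.

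Genes of fatty acid oxidation and targets of PPAR-alpha did not pass the test. Of 33 tested members, 9 had a difference above 0, the median was -0.086, and none reached an unadjusted p of 0.05. Cpt1a, which admits fatty acids into mitochondria, had 9.67, 9.82 and 10.36 in high-fat cancers, against 9.85, 10.17 and 9.87 in LC cancers, and differed by -0.034 (interval -0.36 to 0.29). Pdk4, which turns mitochondria from glucose to fat, differed by -0.11 at a level near background. Angptl4, a fasting- and hypoxia-induced inhibitor of lipoprotein lipase, differed by -0.04 (SE 0.433). The uncoupling protein Ucp3 (-0.43) and the isomerase Eci2 (-0.34) had the smallest p, 0.0807 and 0.0809, and Ucp3 differed by -0.15 without LC cancer 1. Within slide 1 the list median was -0.14, within slide 5 it was -0.15, and without LC cancer 1 it was 0.016.

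Of 19 tested genes for fatty acid uptake, binding and activation, 9 had a difference above 0 (median -0.012). Cd36, the fatty acid transporter, had 6.96, 7.34 and 8.37 in high-fat cancers, against 8.18, 6.81 and 7.58 in LC cancers (-0.012, interval -0.69 to 0.66). Fabp4, the fatty acid carrier of fat cells and macrophages, had 7.13, 7.32 and 8.51 in high-fat cancers, against 6.73, 6.57 and 7.36 in LC cancers, and differed by 0.73 (unadjusted p = 0.043). It stood above LC cancers 1 and 2 in all 9 high-fat cancers and overlapped LC cancer 3. Among 15 tested adipocyte markers 10 had a difference above 0, with a median of 0.12. With normexp at the 75th percentile their median was -0.15, beside -0.18 over all genes. At an unadjusted p under 0.05, 3 were higher, beside 2.36% of all genes: Fabp4, Retn (resistin, 0.37) and Cebpa (a fat cell transcription factor, 0.30). Adipoq, adiponectin, had 6.74, 6.93 and 7.44 in high-fat cancers, against 6.72, 6.80 and 6.94 in LC cancers (0.20, interval -0.10 to 0.50). In tissue pieces such as these, fewer cells of a type and less RNA per cell cannot be told apart. Lep, leptin, did not pass the filter on dim probes. Of 11 cholesterol efflux genes and LXR targets 4 had a difference above 0, and Abca1, the cholesterol exporter, differed by -0.53 (unadjusted p = 0.0441), and by -0.28 without LC cancer 2. Of 23 eicosanoid genes 12 had a difference above 0. Ptgs2, the inducible cyclooxygenase, did not pass the filter, and the prostaglandin synthases Ptgis (-0.82) and Ptges (-0.53) had the smallest p of that list. For Ptgis, LC cancer 3 at 10.22 stood above LC cancers 1 and 2 at 7.44 and 7.06 and above every high-fat cancer (7.08 to 7.88), and without it the difference was 0.17.

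Among receptors for leptin and adiponectin, the hormones of fat cells, Lepr and Adipor2 had an unadjusted p under 0.05 and Adipor1, the other adiponectin receptor, differed by -0.05 (unadjusted p = 0.63). Lepr, the leptin receptor, had 6.57, 6.73 and 6.98 in high-fat cancers, against 6.91, 7.09 and 7.00 in LC cancers. It differed by -0.26 (interval -0.44 to -0.075, unadjusted p = 0.00935), and OP cancer 2 was the only high-fat cancer inside the LC range. The level was low, with 7 of 12 cancers well above background. Adipor2, an adiponectin receptor that raises fatty acid oxidation, had 11.47, 11.86 and 12.40 in high-fat cancers, against 11.38, 11.46 and 11.44 in LC cancers, and differed by 0.46 (unadjusted p = 0.0174) without overlap. Over the 13 tested receptors of this list, 4 had a difference above 0 and the median was -0.05.

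Insulin and IGF signalling showed no common direction: 9 of 23 tested members had a difference above 0, with a median of -0.07. Igf1 spanned 11.83 to 14.47 among high-fat cancers, against 12.50, 13.10 and 14.23 in LC cancers (0.043, SE 0.546). Igf1r differed by -0.22 (SE 0.303, and -0.044 without LC cancer 2) and Insr by -0.0027 (interval -0.25 to 0.24). Mtor had the smallest p of the list (-0.19, unadjusted p = 0.0739). Of 23 genes of glycolysis, lactate and hypoxia 7 had a difference above 0 (median -0.10), with -1.30 within slide 1 and 0.53 within slide 5. Of 26 genes of the TCA cycle and the respiratory chain 11 had a difference above 0 (median -0.0071). Ndufa5, a subunit of complex I, differed by 0.42 (unadjusted p = 0.00965) with no overlap, while Sdha, of complex II, differed by -0.20 (unadjusted p = 0.0558).

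Genes of the steroid hormone response and of the EGF family did not pass the test. Of 13 tested genes of the oestrogen and progesterone response 5 had a difference above 0 (median -0.12), and of 12 EGF ligands and ERBB receptors 2 did (median -0.15). The medians were 0.38 and 0.058 within slide 1 and -0.34 and 0.035 within slide 5, so neither list kept 1 sign across the settings. Esr1, the oestrogen receptor, had 6.32, 6.68 and 7.05 in high-fat cancers, against 6.83, 7.05 and 6.79 in LC cancers (-0.20, interval -0.50 to 0.11, and -0.12 without LC cancer 2). Its level was low, with 7 of 12 cancers well above background. Pgr, the progesterone receptor, had 7.14, 7.94 and 9.05 in high-fat cancers, against 8.53, 8.22 and 9.04 in LC cancers (-0.51, interval -1.38 to 0.35, and -0.29 without LC cancer 3). Erbb2, the receptor amplified in a class of human breast cancers, had 8.97, 10.00 and 10.44 in high-fat cancers, against 10.23, 10.21 and 10.39 in LC cancers (-0.42, interval -0.94 to 0.10). Areg, a ligand of the EGF receptor that oestrogen induces, differed by -0.96 (SE 0.676) and ranged from 14.01 to 17.60 among high-fat cancers. Of 15 luminal markers 3 had a difference above 0, with a median of -0.16.

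Milk genes varied from tumour to tumour far more than between the diets. Csn2, beta-casein, was at 8.33, 15.22, 16.11, 16.29, 13.21 and 9.28 in OP cancers 1 to 6 and at 17.08, 8.07 and 8.12 in OR cancers 1 to 3, against 17.04, 8.20 and 14.49 in LC cancers 1 to 3. High and low tumours thus stood in every rat group. The difference was -0.83 (SE 2.43, interval -6.12 to 4.45), and 2 of 11 tested milk and secretion genes had a difference above 0 (median -0.54). With slide as a block the list median was -3.21. On slide 1, Csn2 was low in OP cancer 1 and high in LC cancer 1. The list median was 0.19 without LC cancer 1 and -0.15 without OR cancer 3.

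Genes of DNA replication and mitosis had a difference above 0 in 14 of 15 tested members, with a median of 0.24 (0.14 without LC cancer 2). None reached an unadjusted p of 0.05, and Tyms (0.30), which makes thymidylate, and the cyclin gene Ccna2 (0.46, other probe 0.14) had the smallest p, 0.206 and 0.243. The list's mean level spanned 9.04 to 10.69 among high-fat cancers, against 9.85, 9.46 and 9.72 in LC cancers, so the tumours of 1 diet differed more than the diets did. OP cancers 1 and 3 lay below all LC cancers. The median was -0.61 within slide 1 and 0.86 within slide 5. Of 13 cell cycle inhibitors, D cyclins and Myc genes 9 had a difference above 0. Cdkn1b, which encodes the inhibitor p27, differed by 0.46 (unadjusted p = 0.0891), by 0.28 without LC cancer 1, and by -0.31 on its other probe. Ccnd1, cyclin D1, had 13.80, 14.45 and 15.09 in high-fat cancers, against 14.36, 15.12 and 14.68 in LC cancers (-0.28, interval -0.86 to 0.30). The difference of Ccnd1 was -0.077 without LC cancer 2 and -0.45 without LC cancer 1, and its other probe differed by 0.14.

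**Figure D3:**
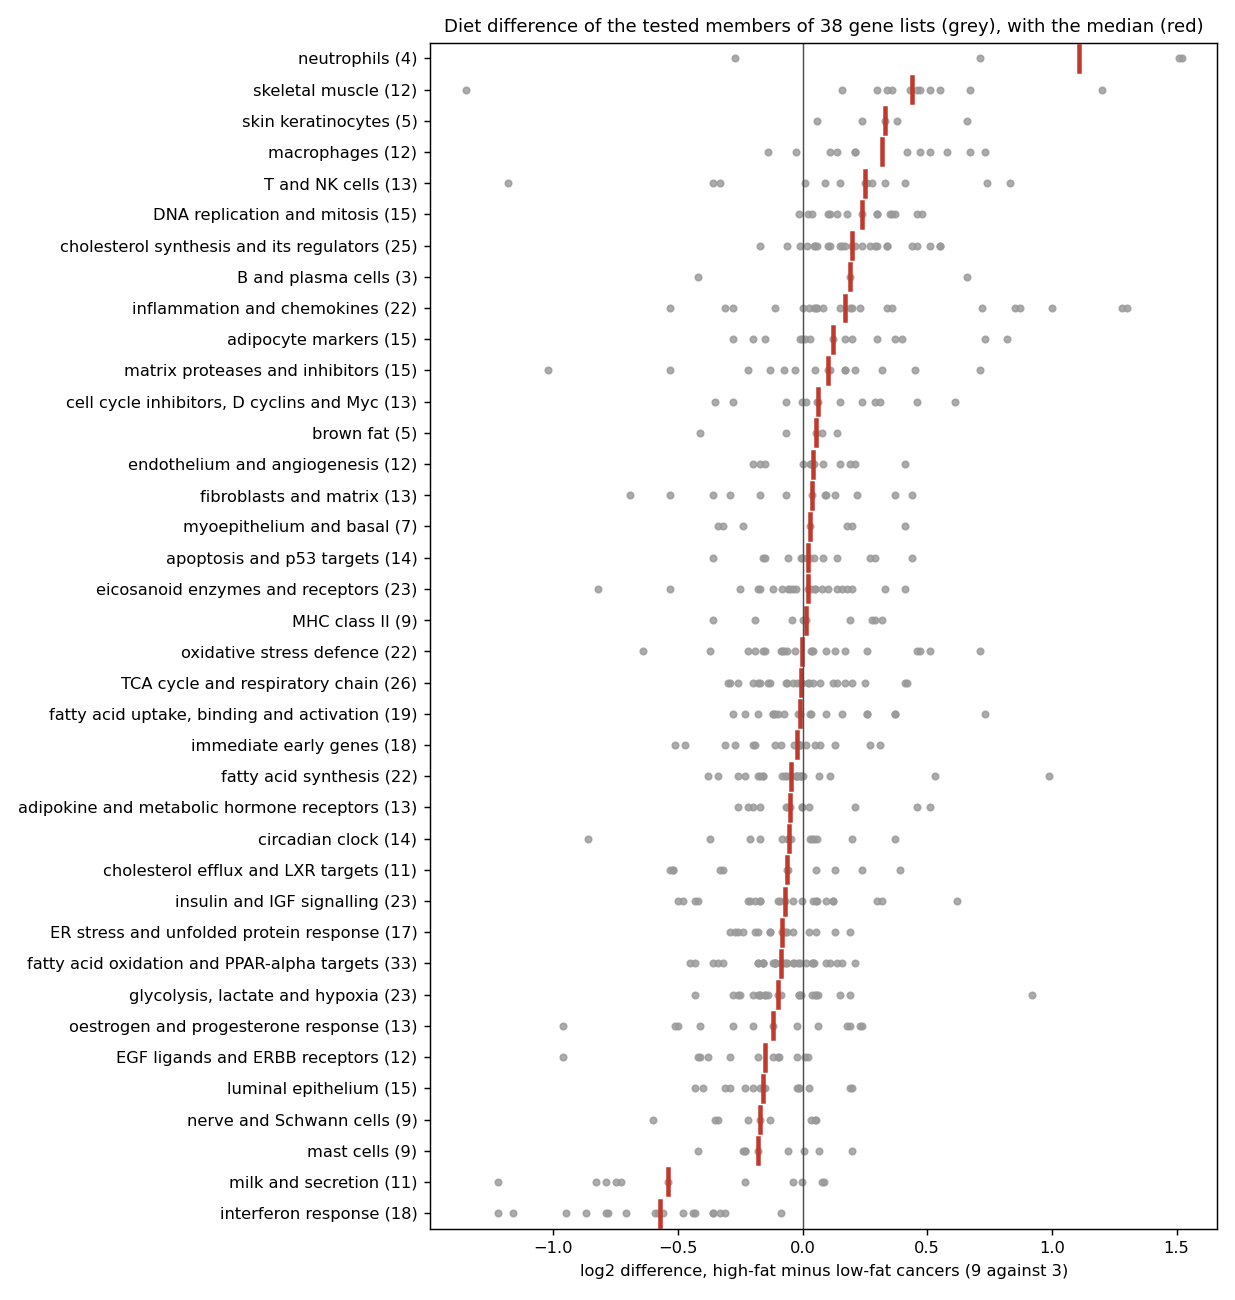
Log2 difference, high-fat minus low-fat cancers, of each tested member of 38 gene lists (grey points), with the list's median (red bar) and the number of tested members in brackets. Medians lie between -0.57 (interferon response) and 1.11 (neutrophils, 4 members). No member passed the adjusted test.

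Interferon-induced genes were the list with the lowest median. All 18 tested members had a difference below 0 (median -0.57, members from -1.22 to -0.085), while 50.8% of all genes had one above 0. At an unadjusted p under 0.05, 2 members were lower, beside 1.86% of all genes. Ifi27, an interferon-induced protein of mitochondrial membranes, had 13.25, 14.27 and 14.77 in high-fat cancers, against 15.47, 14.87 and 14.56 in LC cancers, and differed by -0.87 (interval -1.57 to -0.17, unadjusted p = 0.0192). Stat2, a subunit of the factor that type I interferon activates, had 7.78, 8.29 and 8.76 in high-fat cancers, against 9.76, 8.47 and 8.24 in LC cancers (-0.59, unadjusted p = 0.0485). Mx2, an antiviral GTPase, had 6.75, 7.83 and 8.98 in high-fat cancers, against 10.35, 9.03 and 7.50 in LC cancers (-1.22, unadjusted p = 0.056). In all these LC cancer 1 was the highest of the 12 cancers, and without it Stat2 differed by -0.12 and Mx2 by -0.53. The mean level of the list was 9.58 to 10.95 in high-fat cancers, against 11.58, 10.89 and 10.20 in LC cancers 1, 2 and 3. The median difference was -1.81 within slide 1, which holds LC cancer 1, and -0.0097 within slide 5, and it was -0.18 without LC cancer 1.

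A sequence feature was looked for near the starts of the interferon genes. Interferon-stimulated response elements bind the transcription factor complex that interferon activates, and their core was searched as AANNGAAAC on both strands of the 300 bases around each gene's start (250 before and 50 after, RefSeq sequences of build GRCr8). Of 15 tested interferon genes with such a sequence, 9 held it (60.0%), beside 6.38% of 33469 promoters. The other 6, Stat2 among them, held no match in this window. The promoters of Ifi27, at chr6:128355062-128355361 on the plus strand, and of Gbp2, a guanylate-binding protein whose difference was -0.79, at chr2:234005477-234005776 on the plus strand, are shown as the matching members with the smallest p. Capitals mark the matches, of which Ifi27 has 2 and Gbp2 has 1, on the opposite strand.
Ifi27: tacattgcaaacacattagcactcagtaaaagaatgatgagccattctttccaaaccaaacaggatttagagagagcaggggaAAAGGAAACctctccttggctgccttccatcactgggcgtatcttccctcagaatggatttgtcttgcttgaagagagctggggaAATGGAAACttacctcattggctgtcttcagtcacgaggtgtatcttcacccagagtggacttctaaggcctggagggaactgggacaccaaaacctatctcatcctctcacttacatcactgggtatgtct
Gbp2: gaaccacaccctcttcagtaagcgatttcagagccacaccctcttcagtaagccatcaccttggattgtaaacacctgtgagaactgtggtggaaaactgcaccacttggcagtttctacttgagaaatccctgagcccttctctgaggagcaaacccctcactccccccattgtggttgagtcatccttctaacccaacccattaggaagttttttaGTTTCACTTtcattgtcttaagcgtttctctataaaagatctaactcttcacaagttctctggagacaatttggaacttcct
The same search with the sterol regulatory element TCACNCCAC found it in 0 of 18 tested cholesterol genes with a sequence, beside 1.12% of all promoters. These letters were then not in this window of those genes, and other windows were not used here.

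The macrophage, T and NK cell and neutrophil lists were each highest in OP cancer 6. Of 12 tested macrophage genes 10 had a difference above 0 (median 0.32, and 0.15 without OP cancer 6), led by Tyrobp, an adaptor of myeloid receptors, with 11.81, 12.60 and 14.55 in high-fat cancers, against 11.85, 12.20 and 12.50 in LC cancers (0.73, SE 0.478). Of 13 T and NK cell genes 10 had a difference above 0 (median 0.25, and -0.0082 without OP cancer 6), while the granzyme Gzma differed by -1.18. The 4 tested neutrophil genes had a median of 1.11, and 0.68 without OP cancer 6. S100a9, a calcium-binding protein of neutrophils, was at 14.25 in OP cancer 6 and at 6.83 to 9.46 in the other high-fat cancers, against 6.93, 6.97 and 7.05 in LC cancers. Among inflammation and chemokine genes 18 of 22 had a difference above 0 (median 0.17, 0.07 without OP cancer 6, and -0.0060 with normexp at the 75th percentile). With that normexp scaling the median over all genes was -0.18. Ccl7, a monocyte attractant, had 7.25, 8.71 and 10.30 in high-fat cancers, against 7.35, 7.13 and 7.49 in LC cancers (1.28, interval 0.038 to 2.51, unadjusted p = 0.0444), and OP cancers 4 and 5 lay within the LC range. Ccl2, of the same function, differed by 1.30 (unadjusted p = 0.0864). Macrophage markers stood at 11.67 to 14.17 in high-fat cancers and 12.03 to 12.47 in LC cancers, and their part in the chemokine values was not tested.

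**Figure D4:**
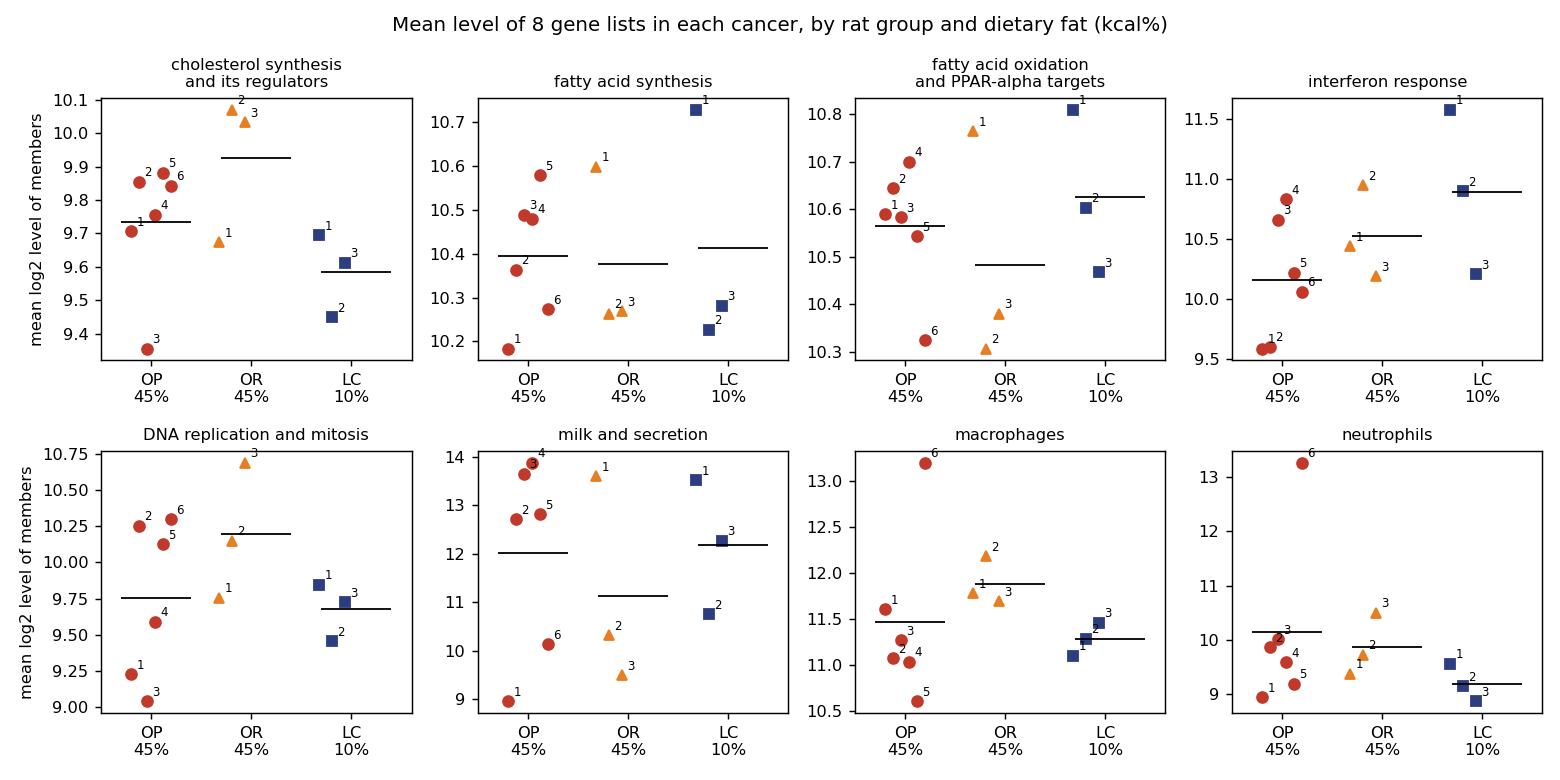
Mean log2 level of the tested members of 8 gene lists in each cancer, by rat group and dietary fat in kcal% (OP and OR at 45, LC at 10), with the replicate number beside each point and a line at the group mean. The high-fat and LC cancers overlap in every panel. LC cancer 1 tops the interferon panel, and OP cancer 6 tops the macrophage and neutrophil panels.

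Fibroblast and matrix genes had a difference above 0 in 7 of 13 members (median 0.038), endothelial genes in 9 of 12 (0.041), and myoepithelial genes in 4 of 7 (0.029). The fibroblast median was -0.43 without LC cancer 1 and 0.49 without LC cancer 3, and the myoepithelial median -0.15 without LC cancer 1 and 0.27 without LC cancer 2. Vegfb, a growth factor of endothelium and muscle, differed by 0.21 (unadjusted p = 0.0332) and by -0.046 on its other probe. Skeletal muscle genes had a difference above 0 in 11 of 12 members (median 0.44, and 0.11 without OP cancer 6), although Actn3, the actinin of fast fibres, differed by -1.35 (unadjusted p = 0.0545). Oxidative stress genes were divided, with 11 of 22 above 0. Txn1, thioredoxin, had 14.23, 14.48 and 14.87 in high-fat cancers, against 14.19, 13.77 and 14.13 in LC cancers, with no overlap and a difference of 0.47 (interval 0.18 to 0.77, unadjusted p = 0.00426). Prdx1, the peroxidase it recharges, differed by 0.46 (unadjusted p = 0.0645). The remaining lists had medians between -0.18 (mast cells) and 0.33 (skin keratinocytes). The mast cell median was -0.62 without LC cancer 1, 0.076 without LC cancer 2, 0.24 without LC cancer 3 and 1.37 with slide as a block, and the keratinocyte median was 0.11 without OR cancer 3. Their numbers of members with a difference above 0 were 3 of 5 for brown fat, 8 of 14 for apoptosis and p53 targets, 2 of 3 for B and plasma cells, 3 of 9 for mast cells, 6 of 9 for MHC class II, 4 of 17 for the unfolded protein response, 6 of 14 for the circadian clock, 6 of 18 for immediate early genes, 5 of 5 for skin keratinocytes, 9 of 15 for matrix proteases and 3 of 9 for nerve and Schwann cells.

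Normal mammary tissue was compared between the same diets. With 5 high-fat against 3 LC normal tissues, 206 of the same 29862 genes passed the adjusted test in limma (0.69%), 187 higher and 19 lower, and 4413 reached an unadjusted p under 0.05. The count was 16 with slide as a block and 0 with the replicate number as a block. Some lists had medians away from 0 in these pieces. The medians of the high-fat minus low-fat difference in normal tissue were 1.14 for luminal epithelium, 1.1 for milk and secretion and 0.77 for myoepithelium. They were -1.01 for macrophages, -1.02 for T and NK cells and -0.92 for DNA replication. Other cell type lists lay nearer to 0, such as adipocyte markers (-0.05), skeletal muscle (0.057), neutrophils (0.14) and fibroblasts and matrix (0.18). The part of these lists in the normal-tissue counts, and in the comparison of the tissues below, was not tested. Milk genes varied among LC normal tissues 1, 2 and 3, with Csn2 at 7.49, 15.29 and 10.22 and Csn1s1 at 12.55, 17.81 and 14.62. In the T and NK list, Klrd1 was at 9.97 in LC normal tissue 3, against 6.11 and 6.60 in LC normal tissues 1 and 2. Gzma of that list differed the other way, by 0.59. Of the 12 higher genes in cancer, 9 also had a difference above 0 in normal tissue, and of the 12 lower genes 7 also had a difference below 0. The share over all genes in normal tissue was not counted, and the median gene there differed by -0.029. At an unadjusted p under 0.05 in limma, 5 of the 24 genes had the same sign in normal tissue and 2 the opposite sign. Cast averaged 11.18 ± 0.09 in high-fat normal tissue and 10.54 ± 0.36 in LC normal tissue (SD, n = 5 and 3), a difference of 0.64 (limma adjusted p = 0.114), beside 0.49 in cancers. Eloa differed by 0.85 in normal tissue (limma adjusted p = 0.0927), beside 0.81 in cancers.

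The difference between the tissues was tested itself. In limma 82 genes passed the test of the diet difference in cancer minus that in normal tissue (0.275% of 29862), 12 above 0 and 70 below. Those with a symbol and a small p included Gtf2ird1, a transcription factor of the Williams syndrome region, Magi3, a junctional scaffold, Nudt1, which clears oxidised nucleotides, and Blvra, biliverdin reductase. Magi3 averaged 10.04 ± 0.14 in high-fat normal tissue and 8.90 ± 0.21 in LC normal tissue (SD, n = 5 and 3). It differed by 1.14 there and by -0.28 in cancers, and the difference between tissues was -1.42 (limma adjusted p = 0.0156). Nudt1 differed by 0.31 in cancers and by -0.56 in normal tissue (difference between tissues 0.86, limma adjusted p = 0.0216). In cancers it had 9.29, 9.56 and 9.66 on the high-fat diet, against 9.18, 9.26 and 9.26 in LC cancers, with no overlap. Blvra differed by -0.053 in cancers and by -0.84 in normal tissue. Of the 24 genes above, Reep2 (-0.85 in cancers, 0.61 in normal tissue, limma adjusted p of the difference = 0.0291) and Mmd (-0.35 and 0.33, limma adjusted p = 0.0455, and 0.0527 with slide as a block) passed this test too. With the arrays scaled to their 75th percentile 1 gene passed on the processed signal and 0 on normexp values, and 5 passed with the replicate number as a block. None of the 6 genes named for this test passed under these alternatives, where their lowest adjusted p was 0.126, 0.202 and 0.0612. Slide as a block left 77 genes, and all of the 6 but Mmd were among them.

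**Figure D5:**
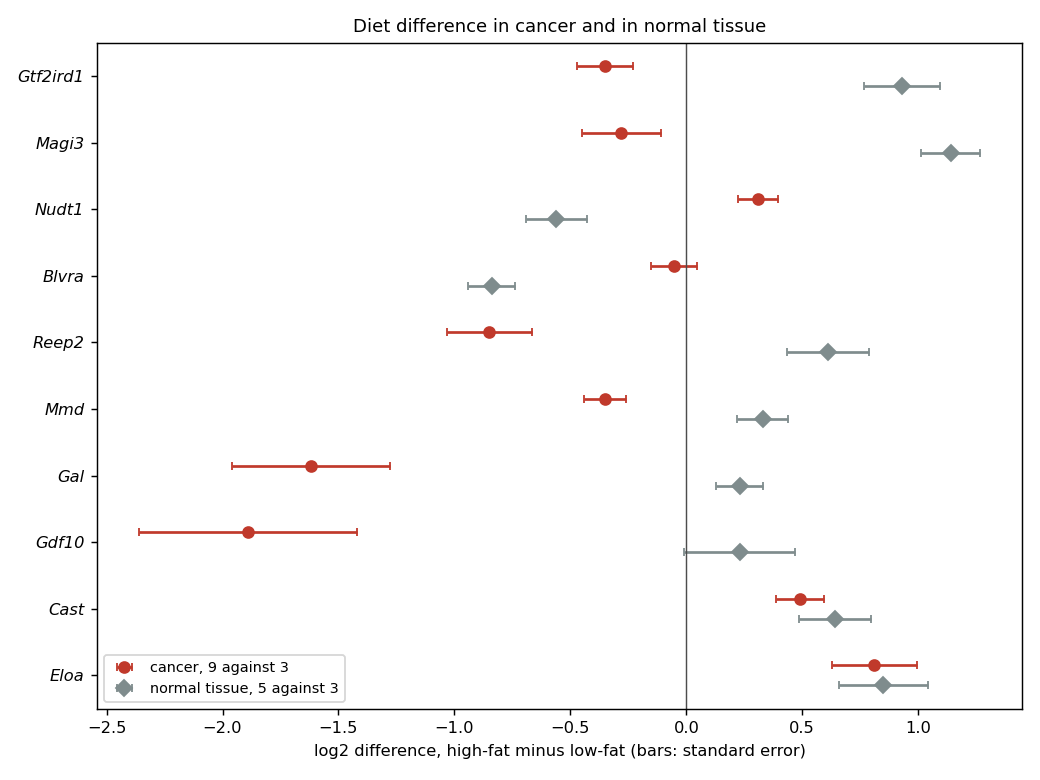
Log2 difference, high-fat minus low-fat, in cancers (circles, 9 against 3) and in normal mammary tissue (diamonds, 5 against 3) for Gtf2ird1, Magi3, Nudt1 and Blvra, then Reep2, Mmd, Gal, Gdf10, Cast and Eloa. Bars are standard errors. Cast and Eloa lie on the same side in both tissues, as do the 2 points of Blvra, while the points of the other 7 genes lie on opposite sides of 0.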

How the data were processed

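Cy3-labelled RNA of the 20 tissues was measured on Agilent arrays of the whole rat genome, with 1 colour. Per the file headers, the scanner files deposited by the authors hold the intensity of each spot and of its local background, and quality flags (other, 0 or 1). Feature Extraction is named as 10.7.3.1 per the submitters' processing notes and as 9.5.1.1 per the file headers. The deposited value table is on a log2 scale. By its match to the scanner values it holds processed signals at the 75th percentile centred per probe, and its column medians lie between -0.151 and 0.239.

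From the median spot and background intensity, normexp (offset 50), log2 and quantile normalization over the 20 arrays were computed (R 4.3.3, limma 3.58.1). Of 41012 probes 115 with outlier marks were left out, and probes well above background on at least 3 of 12 cancers were kept, whatever their group. The brightest probe stood for a symbol, and a probe without a symbol for a gene, which gave 29862 genes, 7189 with a symbol. Of 16321 probes with a RefSeq accession 10835 matched a current gene. No spot was saturated.

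High-fat minus low-fat cancers were fitted with limma on the 12 cancers, with Benjamini-Hochberg adjustment over all genes (threshold 0.05). Normal tissue was fitted on its 8 arrays, and the interaction on all 20. The number of arrays limits the precision. Named genes were the 12 with the smallest p per direction, where none passed, 1 to 3 members with the smallest p per list, a fixed set of genes where tested, and up to 5 for the interaction. Some genes that this rule names are not reported here. Gene lists (38 lists, 750 entries, 565 tested) are described by counts and medians, without a set test. The share over all genes to set beside every list's count of differences above 0 among cancers is 50.8%. Members, lists and named genes were chosen with earlier results of these data known. The fit was tested on simulated independent values for 12 arrays, at the means and spread of the tested genes. It called 32.8% of 67 genes changed by 0.5 on the log2 scale. Of 67 genes changed by 1 it called 77.6%, and of 66 changed by 2 it called 95.5%. Same-numbered cancers of different rat groups had deviations that correlated between -0.359 and 0.22, and different-numbered ones between -0.157 and 0.223. Same-numbered cancers were thus no more alike than others. Whether the numbers pair a cancer with a normal tissue was not tested. Alternatives were other scalings, filters, probe rules, blocks, weights and leaving out each cancer.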

Additional observations from a re-analysis of the deposited data

Results flagged for a closer look

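Among 78 groups of 9 high-fat cancers examined, 7 held a sample far from the others by Dixon's test, which chance alone gives for about 1 group in 20. OP cancer 6 was the sample in 5 of them, with the highest mean log2 level of the fibroblast and matrix list (14.42, others 11.87 to 13.05), B and plasma cells (8.81, others 7.17 to 7.99), neutrophils (13.27, others 8.94 to 10.5), inflammation and chemokines (10.01, others 8.46 to 9.2) and oxidative stress defence (11.3, others 10.85 to 10.98). OR cancer 3 was highest for skin keratinocytes (10.71, others 8.6 to 9.02). OP cancer 4 was highest for Reep2 (8.44, others 7.59 to 7.94).

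The diet difference in cancer minus that in normal tissue was tested for each gene and passed for the named genes Gtf2ird1 (-1.27), Magi3 (-1.42), Nudt1 (0.86), Blvra (0.79), Reep2 (-1.46) and Mmd (-0.68). None of these 6 passed with the processed signal or normexp at the 75th percentile, or with the replicate number as a block.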

How the results depend on the processing

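The count of 0 called genes among cancers held under every alternative run except leaving out LC cancer 1, which gave 3 (range 0 to 3 over cancers left out in turn). At an unadjusted p under 0.05, limma gave 1261 genes, against 2315 with slide as a block, 2414 with array weights and 4128 with the processed signal at the 75th percentile and slide as a block, an alternative chosen after seeing the data. Leaving out each cancer gave 881 to 1566. Genes whose groups did not overlap numbered 225 higher and 112 lower, together 374 to 1051 with a cancer left out, since fewer samples overlap less. The share of probes well above background differed by 8.19 percentage points within slide 5, and by -1.76 to 1.98 when each cancer was left out. In normal tissue 206 genes were called, against 39 (processed signal, 75th percentile), 114 (normexp, 75th percentile), 316 (no filter), 16 (slide block) and 0 (replicate block). For the interaction 82 were called, against 1, 0 and 5 with the processed signal, normexp and replicate block, 77 with slide as a block and 77 with no filter. The replicate block gave 0 calls among cancers and 908 at an unadjusted p under 0.05, and same-numbered cancers were no more alike than others. The 24 genes with the smallest p kept their sign in 617 alternative values, with a lowest adjusted p of 0.124. They were chosen by their p on the same cancers that the alternatives use, so their constant sign says little further. Of 988 list medians, 112 changed sign.

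With normexp at the 75th percentile, where the median gene differed by -0.18, the sign turned for Adipoq (-0.15), Fasn (0.21), Cpt1a (0.023), Angptl4 (0.041), Sdha (0.04), Mcpt4 (-0.21) and RT1-DOa (-0.048). With the processed signal it turned for Fasn (0.09), Cd36 (0.14) and Insr (0.1), with the authors' deposited table for Fasn (0.08) and Cd36 (0.13), and with the mean of probes for Fasn (0.075) and Igf1 (-0.015). With array weights it turned for Fasn (0.31), Cd36 (0.082), Igf1 (-0.25), Insr (0.022), Csn2 (0.71) and Csn1s1 (0.13). With slide as a block it turned for Cpt1a (0.079) and Angpt1 (-0.22), and with the processed signal added for Cpt1a (0.068), Insr (0.17), Otop1 (0.045) and Angpt1 (-0.35). With the replicate block it turned for Cpt1a (0.033) and Insr (0.001), with OP and OR means weighted equally for Cd36 (0.064), and with quantiles over cancers alone for Insr (0.004). The cause was not tested. When each cancer was left out in turn, the difference ranged from -0.2 to 0.13 for Fasn, -0.8 to 0.44 for Scd, -0.091 to 0.07 for Cpt1a, -0.23 to 0.027 for Pdk4, -0.18 to 0.2 for Angptl4 and -0.37 to 0.32 for Cd36. It ranged from -0.35 to 0.52 for Igf1, -0.049 to 0.035 for Insr, -3.35 to 1.07 for Csn2, -1.42 to 0.17 for Ptgis and -0.0075 to 0.87 for Fbn1.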

Other observations

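Without LC cancer 1, 3 probes passed the adjusted test among cancers, all lower on the high-fat diet, and none has a symbol here. They were chosen after their values were seen. A_44_P636717 had log2 levels of 7.14, 7.24 and 7.48 as lowest, median and highest value in high-fat cancers, against 7.16, 12.14 and 11.87 in LC cancers 1, 2 and 3. It was thus bright in 2 of the 12 cancers and far lower in the others, though well above background on all 12. Normal tissue showed the same split, with 12.63 in OP normal tissue 2, 11.82 in OR normal tissue 1 and 12.20 in LC normal tissue 3, and 6.55 to 7.44 in the other 5. A_44_P732329 had 6.94 to 7.24 in high-fat cancers, against 6.89, 7.86 and 7.89 in LC cancers, and A_44_P425809 had 6.56 to 6.91, against 6.91, 7.47 and 7.56.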
